A study of Homo sapiens with 6 samples.

Results

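The 47 genes described here encode receptor tyrosine kinases, the cell surface receptors that carry a kinase domain inside the cell. They were chosen by name, as the rows of the deposited expression table whose gene symbol was on a fixed list of receptors, and they made up 47 of the 58735 genes in that table. All 47 were found. RNA was sequenced from the human papillary thyroid carcinoma cell line TPC-1, in 3 libraries of the wild strain (TPC-1) and 3 libraries of cells overexpressing *RRM2* (*RRM2*-OE-TPC-1). *RRM2* encodes the small subunit of ribonucleotide reductase, the enzyme that makes deoxynucleotides for DNA synthesis. Both groups share the same parental line, and the overexpressing cells were made with a lentivirus and selected with puromycin. No library of cells carrying the empty vector was analysed here, so transduction, selection and *RRM2* overexpression cannot be told apart, and neither can fewer cells of a kind and less RNA per cell. The genotype labels of replicates 2 and 3 of the overexpressing group name other genes of similar symbol, while their titles name *RRM2*.

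A receptor tyrosine kinase is usually switched on when an extracellular ligand brings receptor molecules together, after which the kinase domains phosphorylate each other and adaptor proteins dock on the phosphorylated tyrosines. The RAS-MAPK, PI3K and PLC gamma routes start from these docking sites, and phosphatases, ubiquitin ligases and feedback inhibitors turn the receptors off. Papillary thyroid carcinoma is commonly driven by *BRAF* or *RAS* mutation or by a kinase fusion, and TPC-1 is widely used as a line that carries a *CCDC6*-*RET* fusion, in which the *CCDC6* promoter and a dimerizing segment are joined to the *RET* kinase domain. The table gives values per gene, so it does not separate a fusion transcript from a transcript of the native gene.

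The recovered read totals on genes ranged from 14317091 to 17084067 per library, and mitochondrial genes took 4.29% to 5.89% of the reads. Across tested genes, log2 values of libraries correlated with Pearson's r between 0.9903 and 0.9918 within a group and between 0.9266 and 0.9306 across the groups (a description across genes, which are not independent replicates). *RRM2* itself was at 9.17, 9.05 and 8.52 FPKM in TPC-1 and at 50.4, 47.5 and 47.2 FPKM in *RRM2*-OE-TPC-1. Each library thus matched the group its title gives. FPKM are fragments per kilobase of exon, scaled to a depth value for each library. Of 7 thyroid follicular markers, *PAX8* (69.3 FPKM in TPC-1 and 58.5 FPKM in *RRM2*-OE-TPC-1), *FOXE1* (4.30 and 3.19 FPKM) and *HHEX* (2.47 and 4.61 FPKM) reached a mean of 1 FPKM in both groups, whereas *TG*, *TSHR*, *SLC5A5* and *NKX2-1* did not. The summed follicular markers, mostly *PAX8*, lay between 73.9 and 77.8 FPKM in TPC-1 and between 64.3 and 67.6 FPKM in *RRM2*-OE-TPC-1. The summed 6 epithelial markers lay between 42.9 and 47.1 FPKM in TPC-1 and between 88.4 and 90.8 FPKM in *RRM2*-OE-TPC-1, with *KRT18* making up most of the sum and *EPCAM* and *CDH1* under 1 FPKM in both groups. None of the 4 C cell, 5 leukocyte, 4 endothelial and 4 fibroblast markers reached a mean of 1 FPKM in either group, and no library had a sum above 1.07 FPKM for any of these lists. The part of these marker levels in the results that follow was not tested.

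The promoter sequences of the 4 receptor genes that passed both thresholds of the comparison, and of *AXL*, the receptor gene with the highest mean in TPC-1, are shown first, so that the annotated start regions of the genes the comparison turned on can be seen. Values per gene do not show which start site these cells used. *AXL* had 2 windows, *DDR2* 3 and *EPHA4* 2, and for *AXL* and *DDR2* the window nearest to the annotated 5′ end is printed. The windows come from RefSeq on GRCh38.p14 and hold 250 bases before and 50 bases after an annotated start site. At least 1 such window was found for 44 of the 47 genes, with *FGFR1*, *ERBB3* and *FLT4* being the others. Capitals mark matches on either strand to the GC box (GGGCGG), the AP-1 site (TGACTCA), the E-box (CACGTG), the CRE (TGACGTCA), the CCAAT box (CCAAT) and the TATA box (TATAAA). Overlapping matches were each counted, and no letters of one of these motifs contain another.
AXL (chr19:41218973-41219272, plus strand): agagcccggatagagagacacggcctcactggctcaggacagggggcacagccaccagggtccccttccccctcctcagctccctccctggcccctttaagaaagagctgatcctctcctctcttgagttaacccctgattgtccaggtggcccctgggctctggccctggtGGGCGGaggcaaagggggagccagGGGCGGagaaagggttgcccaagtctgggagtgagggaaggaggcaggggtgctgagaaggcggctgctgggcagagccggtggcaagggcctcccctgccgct
EPHA4 first window (chr2:221574153-221574452, minus strand): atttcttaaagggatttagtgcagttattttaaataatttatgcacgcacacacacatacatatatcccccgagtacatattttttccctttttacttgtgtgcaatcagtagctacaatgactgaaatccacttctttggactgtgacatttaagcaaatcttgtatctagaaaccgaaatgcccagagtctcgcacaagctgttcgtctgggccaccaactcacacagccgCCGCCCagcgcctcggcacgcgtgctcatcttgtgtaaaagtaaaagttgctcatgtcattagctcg
EPHA4 second window (chr2:221572255-221572554, minus strand): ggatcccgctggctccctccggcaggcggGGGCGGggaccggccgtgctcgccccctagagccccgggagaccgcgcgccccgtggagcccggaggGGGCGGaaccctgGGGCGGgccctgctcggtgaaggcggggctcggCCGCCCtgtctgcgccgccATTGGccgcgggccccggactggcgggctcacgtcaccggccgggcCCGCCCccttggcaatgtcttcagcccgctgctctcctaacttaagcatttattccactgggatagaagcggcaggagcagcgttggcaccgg
INSR (chr19:7294365-7294664, minus strand): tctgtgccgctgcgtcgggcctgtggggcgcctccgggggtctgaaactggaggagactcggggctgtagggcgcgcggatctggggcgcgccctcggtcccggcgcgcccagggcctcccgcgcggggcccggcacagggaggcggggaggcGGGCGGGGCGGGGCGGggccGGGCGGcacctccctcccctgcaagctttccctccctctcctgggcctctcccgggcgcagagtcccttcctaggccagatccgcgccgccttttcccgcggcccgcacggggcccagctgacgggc
DDR2 first window (chr1:162630613-162630912, plus strand): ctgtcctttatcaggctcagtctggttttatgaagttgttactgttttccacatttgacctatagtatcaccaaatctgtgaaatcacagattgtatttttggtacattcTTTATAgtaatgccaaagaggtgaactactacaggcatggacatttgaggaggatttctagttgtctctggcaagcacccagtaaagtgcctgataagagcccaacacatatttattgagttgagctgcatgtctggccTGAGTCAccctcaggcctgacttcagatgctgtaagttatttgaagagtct
NTRK3 (chr15:88256690-88256989, minus strand): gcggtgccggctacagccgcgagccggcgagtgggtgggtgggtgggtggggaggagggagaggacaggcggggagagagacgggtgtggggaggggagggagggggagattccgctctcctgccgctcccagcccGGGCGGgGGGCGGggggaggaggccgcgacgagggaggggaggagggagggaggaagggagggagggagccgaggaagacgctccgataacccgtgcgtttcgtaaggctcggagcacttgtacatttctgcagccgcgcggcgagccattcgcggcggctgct

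The promoters of the 5 genes differed in composition. *DDR2*, which encodes a collagen receptor, had the window with the lowest share of G and C (41%), with 0 CpG dinucleotides, 1 AP-1 match at its start site and 1 TATA box match. *INSR*, which encodes the insulin receptor, had 78.3% G and C, 36 CpG and 4 GC box matches, of which 3 overlap. *NTRK3*, which encodes the neurotrophin-3 receptor, had 72% G and C, 30 CpG and 2 GC box matches. The first *EPHA4* window had 43% G and C and 1 GC box match, and the second, 1898 bases from the annotated 5′ end of the gene, had 74.3% G and C, 33 CpG, 5 GC box matches and 1 CCAAT match. *AXL* had 66% G and C, 7 CpG and 2 GC box matches. Across all 35116 windows of 27305 genes, the GC box was found in 45% of windows, the AP-1 site in 4.95%, the E-box in 7.26%, the CRE in 1.85%, the CCAAT box in 34.6% and the TATA box in 11.5%. A match is a run of letters, not a shown binding site.

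Taking for each receptor the window nearest to the annotated 5′ end, the 24 genes with a mean of at least 1 FPKM in TPC-1 had a median of 73.8% G and C and 32.5 CpG, and a GC box in 20 of 24 windows. The 20 genes under 1 FPKM had a median of 62.2% G and C and 19 CpG, and a GC box in 14 of 20 windows. The median over all 35116 windows was 58.7% G and C and 14 CpG. That median takes every window of a gene, not only the one nearest to the 5′ end, so it is not matched to the receptor sets. An AP-1 match was found in 1 window of each receptor set. These values describe the windows, and no test was made between the sets.

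To learn which receptors TPC-1 cells transcribe, the 47 genes were ranked by mean FPKM over the 3 TPC-1 libraries, a value per length that lets genes be compared. In TPC-1, 6 receptor genes had a mean of 10 FPKM or more, 19 lay between 1 and 10 FPKM, 15 were above 0 and under 1 FPKM, and 7 had no read in any TPC-1 library. The 4 highest, *AXL*, *EPHA2*, *MET* and *EGFR*, held between 67.6% and 68.4% of the summed FPKM of all 47 genes in each TPC-1 library, and *AXL* with *EPHA2* alone held between 50.7% and 52.4%. The sum over all 47 genes was 350.7 ± 5.53 FPKM (SD, n = 3) in TPC-1. The levels are drawn for every gene and library in the plot of receptor levels.

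**Figure D1:**
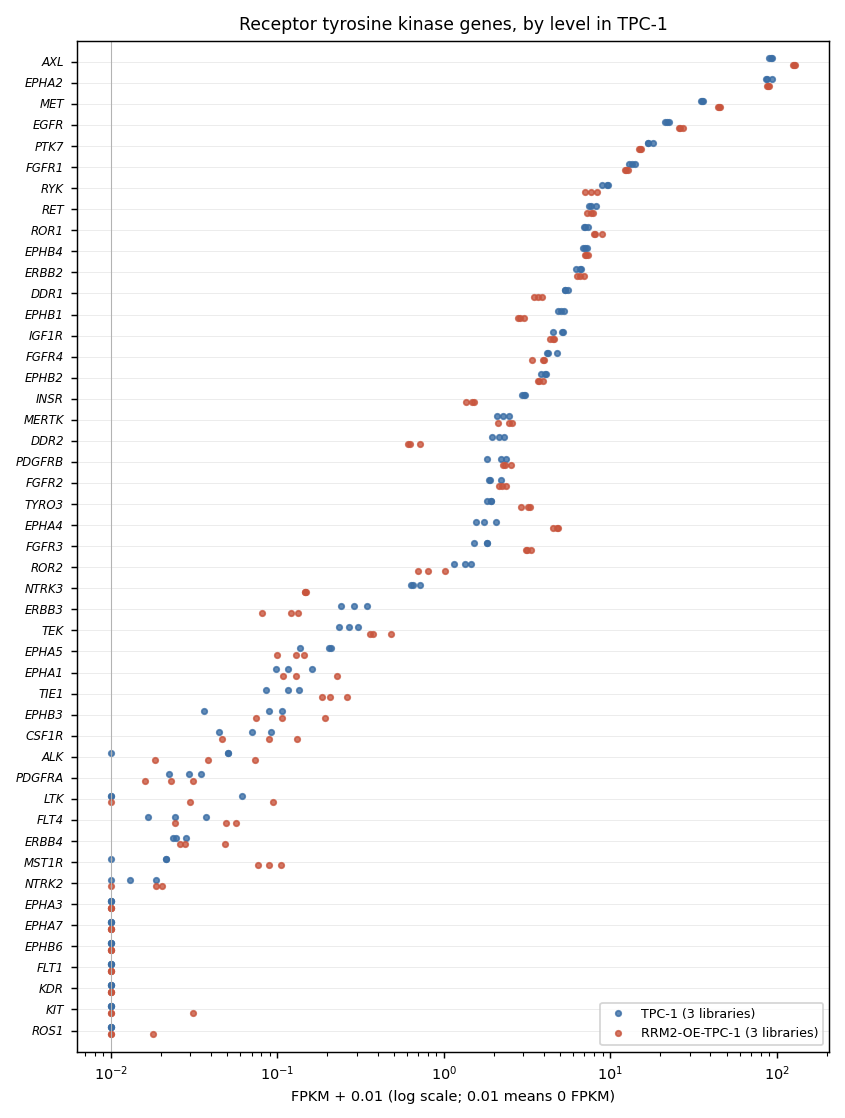
FPKM of the 47 receptor tyrosine kinase genes (horizontal log axis, FPKM + 0.01, so that a point at 0.01 is a library with 0 FPKM), in the order of their mean in TPC-1; each point is 1 library, blue for TPC-1 and red for RRM2-OE-TPC-1. AXL and EPHA2 stand at the top, with TPC-1 means of 92.0 and 88.9 FPKM, and 5 genes at the bottom have no read in any of the 6 libraries.

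*AXL* encodes a receptor of the TAM family, which binds GAS6 and is known for its part in cell survival and invasion. Its level was 93.9, 89.6 and 92.4 FPKM in the TPC-1 libraries, which placed it at position 306 of all genes by mean. *EPHA2*, a receptor for membrane-bound ephrin-A ligands on neighbouring cells, was at 93.2, 85.9 and 87.6 FPKM. The libraries of *AXL* and *EPHA2* overlapped, so their order is not set by these data. *MET*, the receptor for hepatocyte growth factor, was at 35.5, 36.3 and 34.9 FPKM, and *EGFR*, the epidermal growth factor receptor, was at 21.4, 22.4 and 21.8 FPKM. Each of these steps down was larger than the spread between libraries.

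Below these 4 stood *PTK7*, a receptor-like protein with an inactive kinase domain that takes part in Wnt and planar cell polarity signaling, at 17.98, 16.9 and 16.8 FPKM. *FGFR1*, a fibroblast growth factor receptor, was at 14.03, 12.95 and 13.5 FPKM. *RYK*, a Wnt-binding receptor whose kinase domain is also inactive, was at 8.91, 9.67 and 9.60 FPKM. The libraries of these 3 genes did not overlap one another.

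*RET*, the receptor for GDNF family ligands and the kinase partner of the fusion, was at 7.63, 7.46 and 8.18 FPKM in TPC-1 (880, 867 and 901 recovered reads), which was position 8 among the 47 receptors and position 5365 among all genes. Its level was thus well below that of *AXL*, *EPHA2*, *MET* and *EGFR*, without overlap between libraries. *CCDC6*, whose promoter drives the fusion, was listed at 0.400, 0.429 and 0.393 FPKM in TPC-1 and at 0.424, 0.302 and 0.291 FPKM in *RRM2*-OE-TPC-1, with 34 to 53 recovered reads per library, and did not pass the filter for testing. *NCOA4*, the partner gene of the other common *RET* fusion in papillary carcinoma, was at 69.6 ± 1.24 FPKM in TPC-1. How reads of a fusion transcript were assigned between *CCDC6* and *RET* is not given in the sources used here, and the *RET* value is divided by the length of all its exons, including those a fusion transcript would lack.

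The next genes formed a close series. *ROR1*, a receptor for WNT5A, was at 7.06, 6.94 and 7.38 FPKM, and *EPHB4*, the ephrin-B2 receptor, at 6.89, 7.004 and 7.28 FPKM, and these 2 genes overlapped. *ERBB2*, the partner receptor of the ERBB family, followed at 6.65, 6.23 and 6.58 FPKM, and *DDR1*, a collagen receptor of epithelial cells, at 5.59, 5.32 and 5.36 FPKM. *EPHB1*, another ephrin-B receptor, was at 4.87, 5.24 and 5.05 FPKM, overlapping with *IGF1R*, the receptor for insulin-like growth factors, at 5.15, 5.20 and 4.55 FPKM. *FGFR4* closed the 15 highest at 4.14, 4.79 and 4.20 FPKM and overlapped with *IGF1R*. Of the 14 neighbouring pairs among these 15 genes, 10 did not overlap and 4 did.

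From position 16 down, *EPHB2* (3.99 FPKM in TPC-1) and *INSR* (3.01 FPKM) stood apart from their neighbours. The genes from position 18 to 24 (*MERTK*, *DDR2*, *PDGFRB*, *FGFR2*, *TYRO3*, *EPHA4* and *FGFR3*, with means from 2.26 down to 1.71 FPKM) formed a run in which each gene overlapped with the next one in the run, so the order of these neighbours cannot be read. Genes further apart in the run could still differ beyond their spread: *MERTK*, at 2.07 to 2.45 FPKM, lay above *TYRO3*, at 1.82 to 1.91 FPKM, in every library. *FGFR3* did not overlap with *ROR2*. At 1.31 FPKM, *ROR2* was the last with a mean of at least 1 FPKM.

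By family, the TAM receptors (*AXL*, *TYRO3*, *MERTK*) summed to 96.1 ± 2.08 FPKM in TPC-1, which was 27.4% ± 0.256 of the total, and the 6 EPHA receptors to 91.0 ± 3.60 FPKM, nearly all of it *EPHA2*. The MET family and the 4 Wnt-binding receptors (*PTK7*, *RYK*, *ROR1*, *ROR2*) followed at 35.6 ± 0.712 and 35.1 ± 0.186 FPKM, then the ERBB family at 28.7 ± 0.275, the FGF receptors at 21.6 ± 0.576 and the EPHB receptors at 16.2 ± 0.265 FPKM (SD, n = 3 for each). The insulin receptor family (7.98 ± 0.354 FPKM), *RET* (7.76 ± 0.377 FPKM) and the discoidin domain receptors (7.54 ± 0.0964 FPKM) each held just over 2% of the total. The PDGF receptor family, which includes *KIT* and *CSF1R*, summed to 2.19 ± 0.300 FPKM, nearly all of it *PDGFRB*. The NTRK, TIE, ALK and VEGF receptor families and *ROS1* stayed under 1 FPKM in sum.

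**Figure D2:**
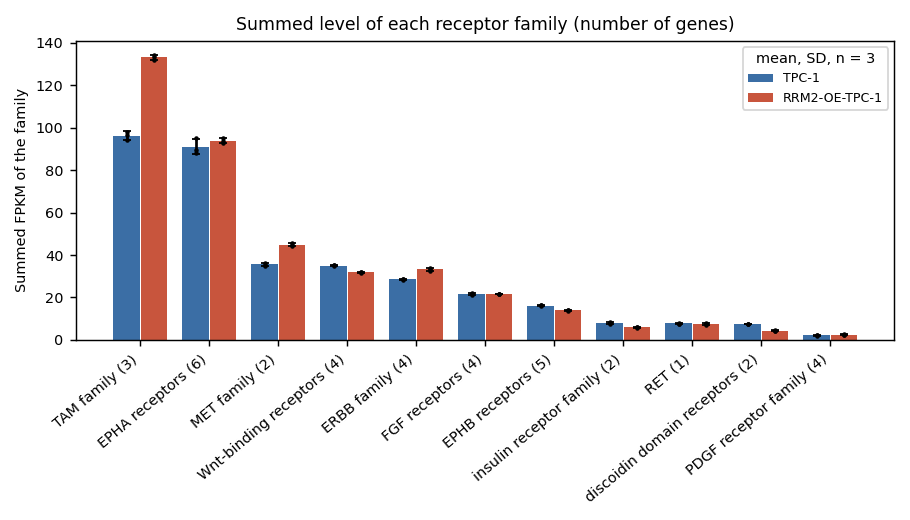
Summed FPKM of each receptor family with a mean of at least 1 FPKM in TPC-1 (bars from 0, mean of 3 libraries; error bars, SD; black points, libraries; blue, TPC-1; red, RRM2-OE-TPC-1; number of genes in brackets). The TAM sum is 96.1 FPKM in TPC-1 and 133.1 FPKM in RRM2-OE-TPC-1, and the discoidin domain receptor sum is 7.54 and 4.30 FPKM.

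To see whether *RRM2* overexpression went with another receptor profile, the groups were compared with limma on log2(FPKM + 0.1) over all 13621 genes that passed the filter on low values, with Benjamini-Hochberg adjustment. A gene was said to rise or fall where the adjusted p was 0.05 or less and the log2 fold change at least 1 either way. Of the 47 receptor genes 26 were tested, and 4 of them passed, 1 higher (*EPHA4*) and 3 lower (*INSR*, *DDR2* and *NTRK3*) in *RRM2*-OE-TPC-1. That was 15.4% of the tested receptors, beside 11.5% of all tested genes (4.48% higher and 6.97% lower), so the share called was near the background. This count and those that follow include *NTRK3*, which passed the filter through TPC-1 alone, so that at its level only a lower value could be seen. By adjusted p alone 15 receptor genes passed, 7 higher and 8 lower, which is 57.7% beside 67.6% of all tested genes, and 17 had groups that did not overlap, beside 72.2% of all tested genes. The median log2 fold change of the 26 genes was -0.02 beside 0.01 over all tested genes, and the median size of the change was 0.25 beside 0.37. Whether the replicates were separate cultures is given only in general terms in the study, and the p-values measure the spread between these libraries.

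**Figure D3:**
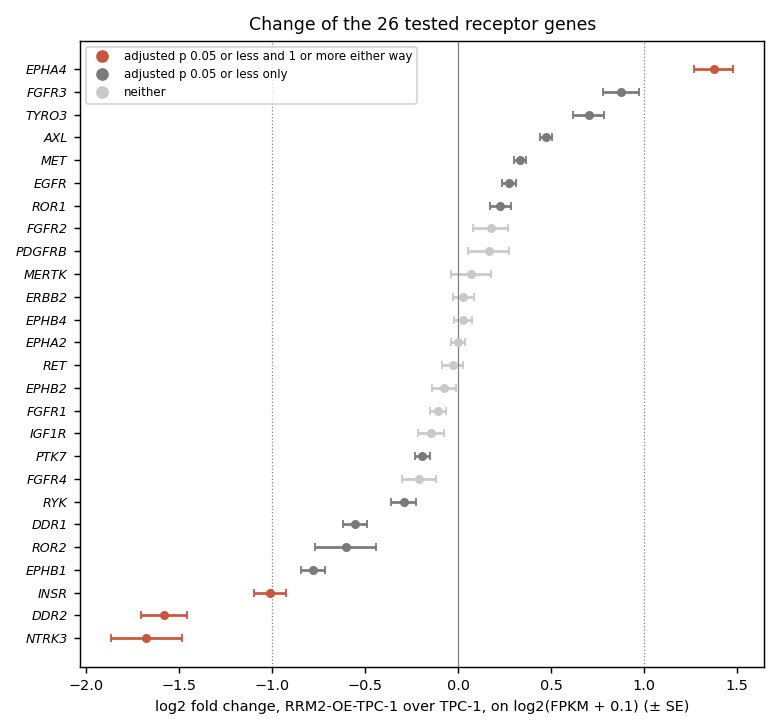
Log2 fold change of the 26 tested receptor genes, RRM2-OE-TPC-1 over TPC-1, on the log2(FPKM + 0.1) scale (points, limma estimate; bars, SE; dotted lines at 1 and -1; red, past both thresholds; dark grey, adjusted p 0.05 or less only; light grey, neither). EPHA4 lies beyond 1, INSR, DDR2 and NTRK3 lie at or beyond -1, and the other 22 lie between the lines. NTRK3 passed the filter on low values through TPC-1 alone.

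*EPHA4*, a receptor that binds ephrins of both the A and the B class and is best known from axon guidance, was at 1.55, 2.05 and 1.74 FPKM in TPC-1 and at 4.55, 4.87 and 4.79 FPKM in *RRM2*-OE-TPC-1. All 3 overexpressing libraries were above all TPC-1 libraries. The log2 fold change was 1.37 ± 0.106 (SE; adjusted p = 1.09e-05 by limma), and the gene moved from position 23 to position 12 among the receptors. *EPHA4* lies on chromosome 2 from 221418027 to 221574202 on the minus strand (GRCh38, GENCODE 29), and 4.67% of its exon bases overlap the opposite-strand gene *AC079834.2*, which averaged 0.146 FPKM over the 6 libraries.

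*DDR2*, the receptor for fibrillar collagen that is usual in mesenchymal cells, was at 1.93, 2.14 and 2.29 FPKM in TPC-1 and at 0.600, 0.707 and 0.620 FPKM in *RRM2*-OE-TPC-1. It fell in every overexpressing library, with a log2 fold change of -1.58 ± 0.122 (SE; limma adjusted p = 1.12e-05), from position 19 to position 25. Its relative *DDR1* was at 3.66, 3.86 and 3.46 FPKM in *RRM2*-OE-TPC-1, a log2 fold change of -0.56 (limma adjusted p = 1.06e-04) that was short of the fold threshold, also without overlap. The sum of both genes was 7.54 ± 0.0964 FPKM in TPC-1 and 4.30 ± 0.245 FPKM in *RRM2*-OE-TPC-1. Both thus stood lower. With a pseudocount of 1 the value of *DDR2* was -0.93, which misses the fold threshold.

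*INSR* was at 2.95, 3.06 and 3.03 FPKM in TPC-1 and at 1.51, 1.35 and 1.47 FPKM in *RRM2*-OE-TPC-1. Its log2 fold change was -1.01 ± 0.0842 (SE; limma adjusted p = 1.66e-05), just past the fold threshold, and it was -0.97 without replicate 2 of *RRM2*-OE-TPC-1 and -0.72 with a pseudocount of 1, which ends the call. *IGF1R*, the other receptor of its family, was at 4.58, 4.34 and 4.51 FPKM in *RRM2*-OE-TPC-1, overlapped with TPC-1 and did not pass (log2 fold change -0.14, limma adjusted p = 0.0977). *INSR* thus went from position 17 to position 23, whereas *IGF1R* went from 14 to 13. Under scaling to library totals and under voom, *IGF1R* passed by adjusted p, short of the fold threshold (log2 fold change -0.20 and -0.21). The difference between the log2 fold changes of *INSR* and *IGF1R* was not tested.

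*NTRK3* had 281, 320 and 273 reads in TPC-1, giving 0.629, 0.711 and 0.640 FPKM, and 54, 63 and 58 reads in *RRM2*-OE-TPC-1, giving 0.140, 0.137 and 0.136 FPKM. Its log2 fold change was -1.68 ± 0.189 (SE; limma adjusted p = 9.47e-05). The gene passed the filter on low values through the TPC-1 libraries alone, so that among genes of its level only those that were lower in the other group could be seen in this way. The value also rests on the pseudocount, being -0.55 with a pseudocount of 1, and without any single TPC-1 library the gene was not tested. The ratio of the 2 group means was 0.209. *NTRK3* lies on chromosome 15 from 87859751 to 88256768 on the minus strand.

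**Figure D4:**
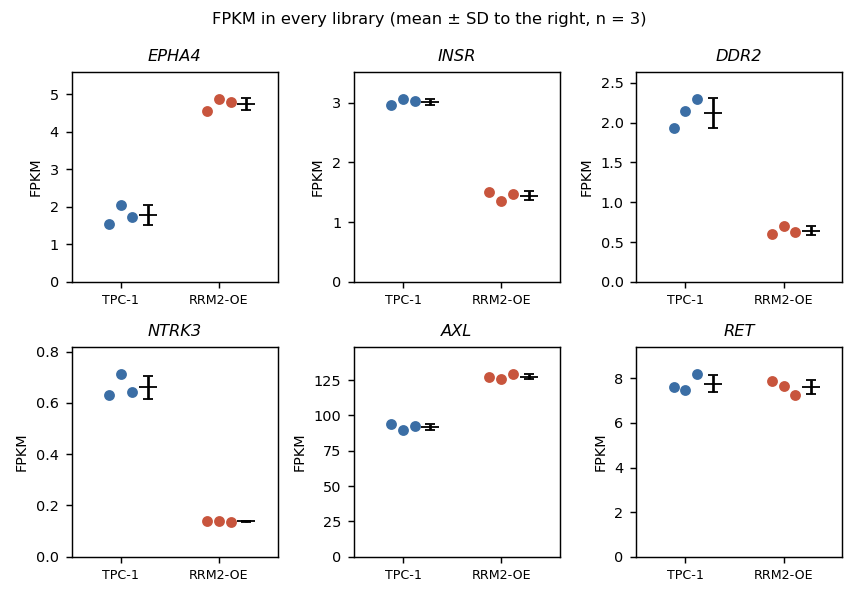
FPKM of EPHA4, INSR, DDR2, NTRK3, AXL and RET in each of the 6 libraries (vertical axes from 0, different scale per gene; coloured points, libraries; black, mean ± SD, n = 3). The groups do not overlap for EPHA4, INSR, DDR2, NTRK3 and AXL, and overlap for RET.

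Among the most abundant receptors, 3 of the 4 highest were further up in *RRM2*-OE-TPC-1 by less than the fold threshold. *AXL* was at 128, 126 and 129 FPKM, a log2 fold change of 0.47 ± 0.0321 (SE; limma adjusted p = 5.52e-06), and it held between 32.1% and 32.7% of the summed receptor FPKM, beside 25.9% to 26.5% in TPC-1. *MET* was at 45.7, 44.7 and 44.2 FPKM (0.33 ± 0.0320, limma adjusted p = 3.68e-05) and *EGFR* at 25.8, 26.3 and 27.2 FPKM (0.27 ± 0.0372, limma adjusted p = 2.81e-04). For each of these 3 genes all overexpressing libraries were above all TPC-1 libraries. Among all tested genes, 34.9% were higher by adjusted p alone and 72.2% had groups that did not overlap. *EPHA2* was at 87.8, 88.8 and 89.9 FPKM, with a log2 fold change of 0.00 ± 0.0378 (limma adjusted p = 0.999) and overlapping groups, and its sign turned under other scalings. In *RRM2*-OE-TPC-1 the libraries of *AXL* and *EPHA2* no longer overlapped, and the sum over all receptors was 393.8 ± 1.37 FPKM.

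*RET* was at 7.86, 7.67 and 7.25 FPKM in *RRM2*-OE-TPC-1, overlapping with the 7.46 to 8.18 FPKM of TPC-1. The log2 fold change was -0.03 ± 0.0561 (SE; limma adjusted p = 0.650). It was 0.0081 without TPC-1 replicate 3 and 0.0023 without replicate 3 of the overexpressing group, so no direction can be given. A difference of *RET* between the groups was thus not detectable with these 6 libraries. *NCOA4* was at 78.0 ± 1.33 FPKM, a log2 fold change of 0.16 (limma adjusted p = 0.00179).

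The TAM family also held *TYRO3*, at 1.91, 1.91 and 1.82 FPKM in TPC-1 and 3.19, 3.27 and 2.88 FPKM in *RRM2*-OE-TPC-1 (log2 fold change 0.70, limma adjusted p = 1.25e-04, no overlap), and *MERTK*, which overlapped between the groups (2.26 and 2.37 FPKM, limma adjusted p = 0.598). By adjusted p alone 2 of the 3 TAM genes passed, which is near the 67.6% of all tested genes. In the ERBB family *ERBB2* was at 6.58, 6.95 and 6.33 FPKM in *RRM2*-OE-TPC-1 and overlapped with TPC-1 (limma adjusted p = 0.678), with a sign that turned under other scalings. *ERBB2* shares 5.53% of its exon bases with *MIEN1* on the opposite strand, and whether the counting used strand is not given in the sources used here, so reads of that stretch may belong to either gene.

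Of the FGF receptors, *FGFR3* was at 1.82, 1.82 and 1.50 FPKM in TPC-1 and at 3.17, 3.11 and 3.35 FPKM in *RRM2*-OE-TPC-1 (log2 fold change 0.87 ± 0.0981 (SE), limma adjusted p = 9.20e-05), close to the fold threshold and without overlap. *FGFR1*, at 12.5, 12.3 and 12.8 FPKM in *RRM2*-OE-TPC-1, *FGFR2* at 2.24 ± 0.107 FPKM and *FGFR4*, at 3.91, 4.01 and 3.39 FPKM, did not pass (limma adjusted p = 0.0575, 0.143 and 0.0674). The groups of *FGFR1* and *FGFR4* did not overlap, as in 72.2% of all tested genes, whereas those of *FGFR2* did. Under scaling to library totals and under voom, *FGFR1* and *FGFR4* passed by adjusted p, short of the fold threshold. The family sum was 21.6 ± 0.576 FPKM in TPC-1 and 21.7 ± 0.0628 FPKM in *RRM2*-OE-TPC-1.

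The Wnt-binding receptors went different ways. *PTK7* was at 15.2, 14.8 and 15.1 FPKM in *RRM2*-OE-TPC-1 (log2 fold change -0.19, limma adjusted p = 0.00312), *RYK* at 7.61, 8.28 and 7.08 FPKM (-0.29, limma adjusted p = 0.00467) and *ROR2* at 0.834 ± 0.164 FPKM (-0.60, limma adjusted p = 0.0112), whereas *ROR1* was at 8.03, 8.12 and 8.93 FPKM (0.23, limma adjusted p = 0.0082). None reached the fold threshold, and in each of the 4 the groups did not overlap, as in 72.2% of all tested genes.

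Among the Eph receptors other than *EPHA4*, *EPHB1* had the largest difference, at 2.79, 3.03 and 2.87 FPKM in *RRM2*-OE-TPC-1 (log2 fold change -0.78 ± 0.0657 (SE), limma adjusted p = 1.74e-05), every library below every TPC-1 library. *EPHB4*, at 7.18, 7.05 and 7.35 FPKM, and *EPHB2*, at 3.78 ± 0.161 FPKM, overlapped between the groups (limma adjusted p = 0.635 and 0.328). The sign of *EPHB4* turned under other scalings. *PDGFRB*, the receptor for PDGF chains that is usual in pericytes and fibroblasts, overlapped too, at 2.12 ± 0.271 and 2.37 ± 0.141 FPKM (limma adjusted p = 0.223).

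The other 21 receptor genes did not pass the filter on low values and were not tested. The highest of them were *ERBB3*, a kinase-impaired partner of ERBB2, at 0.338, 0.230 and 0.278 FPKM in TPC-1 (35 to 51 reads) and 0.122, 0.0710 and 0.111 FPKM in *RRM2*-OE-TPC-1 (11 to 16 reads), and the angiopoietin receptor *TEK* at 0.261 ± 0.0363 and 0.397 ± 0.0676 FPKM. Both had groups that did not overlap, as did 72.2% of all tested genes, and no such share was taken over untested genes. *EPHA5*, *EPHA1*, *TIE1*, *EPHB3*, *CSF1R*, *ALK*, *PDGFRA*, *LTK*, *FLT4*, *ERBB4*, *MST1R* and *NTRK2* had group means between 0.0039 and 0.208 FPKM. *MST1R*, the receptor for macrophage-stimulating protein, had 1, 1 and 0 reads in TPC-1 and 6, 6 and 8 in *RRM2*-OE-TPC-1. *EPHA1* shares 1.73% of its exon bases with the opposite-strand gene *ZYX*, which averaged 70.9 FPKM. *KIT* had 2 reads and *ROS1* 1 read, each in a single *RRM2*-OE-TPC-1 library, and *EPHA3*, *EPHA7*, *EPHB6*, *FLT1* and *KDR* had 0 reads in all 6 libraries. A count of 0 in a library of this depth does not show that a gene is silent.

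Of 71 listed ligands of these receptors, 34 entered the fit, of which 5 rose and 6 fell. That was 32.4% of the tested ligands, beside the 11.5% of all tested genes. By adjusted p alone 21 of the 34 passed, 9 higher and 12 lower, which is 61.8% and below the 67.6% of all tested genes. The median log2 fold change was -0.08 and the median size 0.65, beside 0.37 over all tested genes. These counts include *FGF9*, which passed the filter through TPC-1 alone. The list was compiled with earlier results of these data known, and neither it nor its difference from the receptors was tested as a set.

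Ligands that rose were *FGF1*, a fibroblast growth factor that binds all FGF receptors, at 0.693, 0.778 and 0.892 FPKM in TPC-1 and 6.11, 6.27 and 6.85 FPKM in *RRM2*-OE-TPC-1 (log2 fold change 2.88 ± 0.105 (SE), limma adjusted p = 2.66e-07). *KITLG*, the KIT ligand, was at 3.31, 3.52 and 3.31 FPKM and then 14.2, 14.9 and 14.6 FPKM (2.08 ± 0.0505, limma adjusted p = 4.29e-08), while *KIT* itself had 2 reads in all. *HBEGF*, an EGFR ligand released by shedding, was at 0.854, 1.08 and 1.06 FPKM and then 4.81, 3.95 and 4.12 FPKM (2.00 ± 0.121, limma adjusted p = 2.95e-06). *FGF5* rose from 1.02 ± 0.110 to 3.55 ± 0.270 FPKM (1.70, limma adjusted p = 3.71e-06). None of these 4 ligands had overlapping groups. *TGFA*, the other main EGFR ligand in these cells, was at 12.9 ± 0.687 and 17.9 ± 0.698 FPKM (0.47, limma adjusted p = 8.01e-05), short of the fold threshold.

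For *RET*, whose own level overlapped between the groups, the ligand *GDNF* rose from 0.505, 0.557 and 0.558 FPKM to 1.39, 1.68 and 1.70 FPKM (log2 fold change 1.40 ± 0.134 (SE), limma adjusted p = 3.63e-05). Its coreceptor *GFRA1*, which holds GDNF and presents it to RET, rose from 5.09, 4.77 and 4.90 FPKM to 10.3, 10.8 and 10.4 FPKM (1.08 ± 0.0491, limma adjusted p = 7.29e-07). *GDNF* and *GFRA1* transcripts thus both stood higher in every overexpressing library. With a pseudocount of 1 both missed the fold threshold, at 0.75 and 0.96. The listed RET ligands *ARTN* and *PSPN* overlapped between the groups (0.01 and -0.23, limma adjusted p = 0.978 and 0.257). *GDF15*, also listed for RET, was 0.61 higher on the log2 scale (limma adjusted p = 7.98e-04). Whether the RET protein of these cells responds to these ligands was not tested.

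Ligands that fell included *VEGFA*, the vascular endothelial growth factor, from 34.6, 34.6 and 35.8 FPKM to 7.35, 7.07 and 7.22 FPKM (log2 fold change -2.26 ± 0.0371 (SE), limma adjusted p = 9.81e-09). Its receptor genes *FLT1* and *KDR* had 0 reads. *PROS1*, a TAM receptor ligand that is also an anticoagulant plasma protein, fell from 6.51, 7.41 and 7.62 FPKM to 3.30, 2.64 and 2.72 FPKM (-1.29 ± 0.101, limma adjusted p = 1.18e-05), while *GAS6*, the ligand of AXL, was at 6.99 ± 0.465 and 6.97 ± 0.468 FPKM and did not pass (limma adjusted p = 0.969). *MST1*, the MST1R ligand, fell by 1.32 on the log2 scale from 1.48 ± 0.0731 FPKM (limma adjusted p = 2.57e-04), and *NRG2*, a ligand of ERBB3 and ERBB4, fell by 1.24 from 1.97 ± 0.189 FPKM (limma adjusted p = 1.13e-04). *FGF9* was at 0.946 ± 0.157 FPKM in TPC-1 and at 0.137, 0.141 and 0.0691 FPKM in *RRM2*-OE-TPC-1, where it had 9, 11 and 5 reads. Like *NTRK3* it passed the filter through the TPC-1 libraries alone, so at its level only a lower value could be seen, and its log2 fold change of -2.28 became -0.80 with a pseudocount of 1. With that pseudocount the calls of *MST1* (-0.69) and *NRG2* (-0.74) ended too. *MST1* has a near-identical pseudogene copy, so its reads are uncertain.

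*EFNA1*, an ephrin-A ligand of EPHA2 and EPHA4, fell from 20.7, 18.5 and 19.4 FPKM to 9.54, 10.02 and 8.78 FPKM (log2 fold change -1.04 ± 0.0622 (SE), limma adjusted p = 2.77e-06). Its call was lost without TPC-1 replicate 1 and without replicate 3 of the overexpressing group, where the log2 fold change was -0.9996 and -0.99, and with a pseudocount of 1 (-0.98). Other ephrins went both ways, short of the fold threshold. *EFNB2* was higher, at 4.28 and 7.04 FPKM (0.70, limma adjusted p = 2.68e-05), and *EFNA3* lower (-0.67, limma adjusted p = 0.00547). *EFNA4*, *EFNA5* and *EFNB1* overlapped between the groups. *FGF2* was the tested ligand with the highest mean in TPC-1, at 37.4 ± 1.54 FPKM, and was at 23.8 ± 0.678 FPKM in *RRM2*-OE-TPC-1 (-0.65, limma adjusted p = 4.09e-06). Its lowest TPC-1 library (35.6 FPKM) was below the highest of *VEGFA* (35.8 FPKM), so the order of these ligands is not set by these data. *WNT5A*, a ligand of ROR1, ROR2 and RYK, was at 21.3 ± 0.927 and 20.9 ± 0.693 FPKM (limma adjusted p = 0.590). *BDNF* was lower by 0.67 on the log2 scale (limma adjusted p = 7.83e-05) and *CSF1* by 0.98 (limma adjusted p = 2.33e-07), with *CSF1R* and *NTRK2* under 0.1 FPKM. The MET ligand *HGF*, the insulin gene *INS* and the NTRK3 ligand *NTF3* had 0 reads in all 6 libraries.

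**Figure D5:**
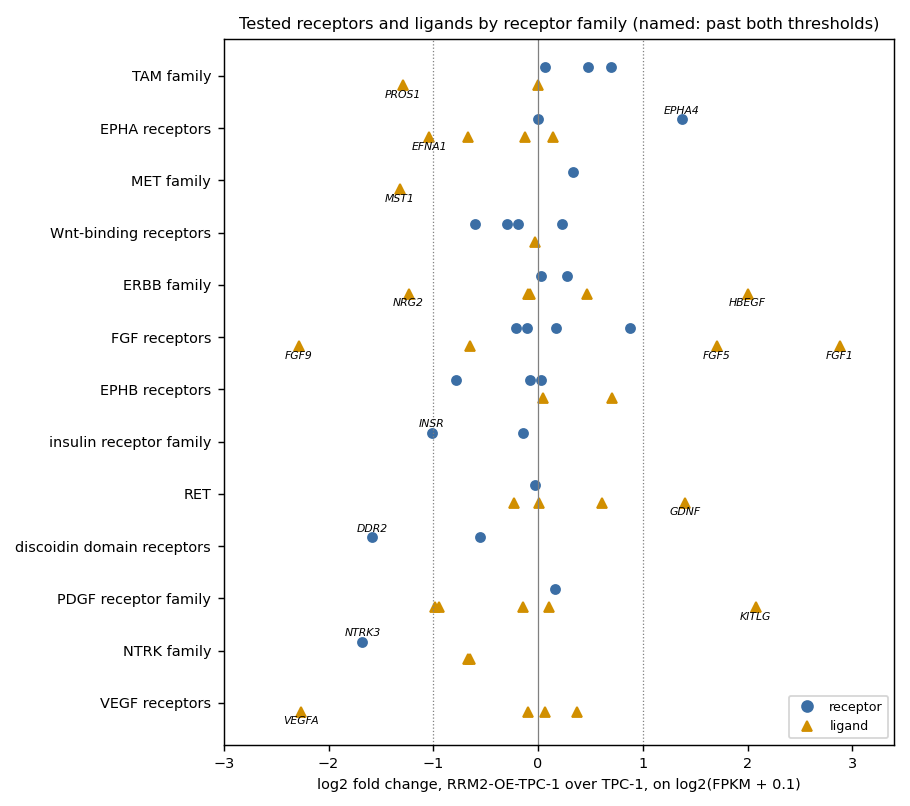
Log2 fold change of the tested receptors (blue circles) and their tested ligands (ochre triangles) by receptor family, RRM2-OE-TPC-1 over TPC-1, on the log2(FPKM + 0.1) scale, with dotted lines at 1 and -1 and names for genes past both thresholds. The ligand changes reach from -2.26 (VEGFA) to 2.88 (FGF1) and the receptor changes from -1.58 (DDR2) to 1.37 (EPHA4), leaving aside FGF9 and NTRK3, which passed the filter on low values through TPC-1 alone and whose estimates depend on the pseudocount.

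Of 16 coreceptors, which present ligands or stabilise the complex, 10 entered the fit and 2 rose, while none fell, which is 20% beside 11.5% of all tested genes called (4.48% higher). Beside *GFRA1* this was *SDC1*, a heparan sulfate proteoglycan that binds heparin-binding growth factors, from 17.1, 15.99 and 16.9 FPKM to 58.2, 54.3 and 54.0 FPKM (log2 fold change 1.73 ± 0.0432 (SE), limma adjusted p = 4.92e-08). *GPC1*, another heparan sulfate proteoglycan, was 0.93 higher (limma adjusted p = 1.94e-06), whereas *SDC3* was 0.78 lower (limma adjusted p = 8.27e-07) and the VEGF and semaphorin coreceptor *NRP1* 0.76 lower (limma adjusted p = 1.91e-06) on the log2 scale. The proteoglycans thus did not move one way.

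Of 30 adaptors and docking proteins 25 entered the fit, of which 3 fell and none rose. *SHC2*, a phosphotyrosine adaptor, fell from 11.7 ± 0.0978 to 4.32 ± 0.168 FPKM (log2 fold change -1.41, limma adjusted p = 2.02e-07). *GRB14*, an adaptor that inhibits the insulin receptor, fell from 7.76 ± 0.487 to 2.95 ± 0.407 FPKM (-1.37, limma adjusted p = 8.50e-06), in the same libraries in which *INSR* was lower. *PLCG2*, a phospholipase C, fell from 9.31 ± 0.321 to 4.11 ± 0.0536 FPKM (-1.16, limma adjusted p = 6.32e-07). The 3 genes are 12% of the 25, beside 11.5% of all tested genes. By adjusted p alone 6 adaptors were higher and 12 lower, 72% beside 67.6% of all tested genes, so both shares were near the background, and the median over the 25 was -0.14.

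Of 22 negative regulators 20 were tested, 1 rose and 2 fell, which is 15% beside 11.5% of all tested genes. *PTPRB*, a receptor phosphatase usual in endothelium, rose from 0.860 ± 0.0490 to 3.34 ± 0.147 FPKM (log2 fold change 1.84 ± 0.0937 (SE), limma adjusted p = 1.28e-06). The 4 endothelial markers summed to 0.873 to 1.07 FPKM in TPC-1 and 0.0667 to 0.170 FPKM in *RRM2*-OE-TPC-1. Of these *PECAM1* was at 0.924 and 0.0588 FPKM and *VWF* at 0.00577 and 0.0325 FPKM (3 and 16 reads in all), so the markers did not go one way, and their part in the result was not tested. *CBLB*, a ubiquitin ligase that marks receptors for degradation, fell from 1.78 ± 0.161 to 0.758 ± 0.0751 FPKM (-1.13, limma adjusted p = 8.99e-05), and *PTPRK*, a receptor phosphatase, from 16.5 ± 0.181 to 7.84 ± 0.425 FPKM (-1.07, limma adjusted p = 7.42e-07). With a pseudocount of 1 both calls ended, at -0.66 and -0.99. *SPRY2*, a feedback inhibitor of the RAS-MAPK route, was at 14.8 ± 0.589 and 7.40 ± 0.361 FPKM (-0.99, limma adjusted p = 1.62e-06), at the fold threshold. *ERRFI1*, an inhibitor of EGFR family kinases, was at 58.2 ± 1.53 and 33.1 ± 0.190 FPKM (-0.81, limma adjusted p = 3.73e-07). By adjusted p alone 13 of the 20 were lower and 3 higher, together 80%, beside 32.7% lower, 34.9% higher and 67.6% in all over the tested genes. The median was -0.35 beside 0.01 over all tested genes. Apart from *PTPRB*, the higher genes were *PTPN1* (0.45, limma adjusted p = 1.23e-05) and *PTPRJ* (0.30, limma adjusted p = 8.50e-05). The list was compiled with earlier results of these data known and was not tested as a set.

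Of 7 sheddases, the metalloproteases that release ligands such as HBEGF or cut receptors, 6 entered the fit and 1 rose. That was 16.7% of the 6, beside 11.5% of all tested genes called (4.48% higher). *ADAM19* rose from 6.90, 6.86 and 7.005 FPKM to 14.8, 14.9 and 14.7 FPKM (log2 fold change 1.08 ± 0.0386 (SE), limma adjusted p = 2.33e-07), and it was 0.99 with a pseudocount of 1. All 6 passed by adjusted p alone, 4 higher and 2 lower, beside 67.6% of all tested genes. The 2 lower were *ADAM17* (-0.46, limma adjusted p = 6.23e-04) and *ADAM10* (-0.39, limma adjusted p = 3.71e-05). Over the 5 lists together, 95 of 146 genes entered the fit, and 9 of these rose and 11 fell. Those 20 genes made up 21.1% of the 95, beside the 11.5% of all tested genes. Of the 20, 11 were ligands, *FGF9* among them. The share was 20% for coreceptors, 12% for adaptors, 15% for negative regulators and 16.7% for sheddases. The lists were compiled with earlier results of these data known and were not tested as a set.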

How the data were processed

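RNA was sequenced from 3 TPC-1 and 3 *RRM2*-OE-TPC-1 libraries. Per the labels, rRNA was depleted and linear RNA digested with RNase R before a directional library kit, whereas the study's methods describe poly(A) selection. Reads were trimmed (fastp), mapped with HISAT2 (2.0.5) and assigned to genes with featureCounts (1.5.0) by the authors, who deposited FPKM and used DESeq2 (1.20.0) for their own comparison. The processing notes name GRCh38.p14. Whether counting used strand is not given in the sources used here. All 58735 gene positions and exon lengths matched GENCODE 29.

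From the deposited FPKM, whole reads were recovered by multiplying with gene length and dividing by the value of 1 read (100% whole within 0.01). The depth by which the FPKM were scaled was 1.03 to 1.05 times the recovered reads in TPC-1. In *RRM2*-OE-TPC-1 it was 0.997 to 1.01 times the recovered reads, so it was not simply the number of mapped fragments. Genes with at least 0.5 FPKM and 10 reads in at least 3 libraries were fitted with limma (3.58.1, R 4.3.3, lmFit and eBayes with trend) on log2(FPKM + 0.1), checked on simulated data. Calls needed both a Benjamini-Hochberg adjusted p no larger than 0.05 and a log2 fold change of at least 1 either way. Fold changes on this scale understate those of low genes. Libraries were grouped by their titles, and replicate numbers were not used in the fit.

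Values are given per library for called receptors, the 15 highest in TPC-1 and *RET* with *CCDC6*. From the lists of ligands, coreceptors, adaptors, brakes and sheddases, up to 4 changes in each direction with a mean of 1 FPKM or more are named, with ligands of described receptors. *PECAM1*, *VWF*, *FGFR3*, *TYRO3*, *ROR2*, *GFRA2*, *GFRA3*, *GFRA4*, *GFRAL* and other receptors outside these rules were named after their values were seen. The members and lists were chosen with earlier results of these data known. For 1 ligand symbol with more than 1 identifier, the row with more reads was used. Promoter windows came from RefSeq. The alternatives were other pseudocounts, filters, scalings, voom, a replicate block and leaving out each library. Of the follicular marker list, 1 gene is not reported here.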

Additional observations from a re-analysis of the deposited data

How the results depend on the processing

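The filter and the pseudocount limit what can be said of low receptors, since 21 of 47 were not tested. The counts depended on thresholds: with a pseudocount of 1, 0 receptor genes were lower instead of 3 (*INSR* -0.72, *DDR2* -0.93, *NTRK3* -0.55), 5 pathway genes were lower instead of 11, and over all genes 303 were higher and 413 lower instead of 610 and 950, since a larger pseudocount shrinks the estimates of low genes. Without the filter, 920 genes were higher and 1361 lower. By adjusted p alone 7 receptor genes were higher and 8 lower, 27 pathway genes higher and 42 lower, and 4758 genes of all higher and 4449 lower. *EPHA4* was higher under every alternative (1.05 to 1.48). Scaling to library totals and voom on recovered reads moved the median of all genes from 0.011 to -0.046 and -0.047 and turned the signs of 3 genes that had not passed: *EPHA2* (-0.058 and -0.058), *EPHB4* (-0.030 and -0.030) and *ERBB2* (-0.029 and -0.028). Under library totals *FGFR1*, *FGFR4* and *IGF1R* passed by adjusted p but not by fold (limma adjusted p = 0.0074, 0.033 and 0.029). Under voom these genes passed too (limma adjusted p = 5.5e-04, 0.0098 and 0.0018), and so did *EPHB2* (limma adjusted p = 0.040). Median-of-ratios size factors and a pseudocount of 0.01 turned no sign. The size factors nearly repeated the deposited scaling, with the median of all genes at 0.011 as before, so they could hardly have turned one.

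Leaving out 1 library at a time gave 1 higher and 2 to 3 lower receptor genes, 9 higher and 10 to 13 lower pathway genes, and 477 to 629 higher and 703 to 996 lower genes over all. The lower receptor lost was *INSR* (-0.97 without replicate 2 of *RRM2*-OE-TPC-1), or *NTRK3*, which failed the filter without any 1 TPC-1 library. *EPHA2* ranged from -0.024 to 0.034, *RET* from -0.058 to 0.0081, *ERBB2* from -0.0071 to 0.059 and *GAS6* from -0.056 to 0.053. *SPRY2* passed the fold threshold without TPC-1 replicate 1, without replicate 1 or 2 of the other group, and under library totals and voom (-1.01, -1.01, -1.003, -1.04 and -1.05), and *CSF1* under the last 2 (-1.04 and -1.05). The 15 highest receptors were the same genes without each TPC-1 library, and 14 of them stayed when reads were not divided by length. The alternatives for single ligand, coreceptor, adaptor, brake and sheddase genes were chosen after seeing the data.

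Libraries of the 2 groups share replicate numbers. Deviations from the group means of same-numbered libraries correlated at -0.011, -0.006 and -0.055, so a pairing by number was not detectable. This check cannot show whether same-numbered cultures were prepared together. With the replicate number as a block, 1 receptor gene was higher and 3 lower, and 610 genes of all were higher and 956 lower.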
